A study of Mus musculus with 6 samples.

Results

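The collagen chain genes are the genes whose symbol in the deposited table is Col, a number, the letter a and a number. All 41 such genes were kept of the 16894 genes listed, and they were sorted by textbook class into 11 fibrillar, 6 basement membrane, 7 FACIT (fibril-associated collagens with interrupted triple helices), 6 beaded, 4 transmembrane and 2 multiplexin chains, with 5 remaining chains of network, anchoring and other collagens. The gene Col4a3bp, whose symbol begins in the same way, encodes a lipid transfer protein and was not a member. 4 further chains of the textbook classes (Col9a1, Col19a1, Col21a1 and Col26a1) were not among the genes listed under these symbols. RNA-seq compared 3 libraries of control with 3 libraries of senescent fibroadipogenic progenitors (FAPs), mesenchymal cells of skeletal muscle that can become fibroblasts or adipocytes. Both groups were primary cultures from hind limb muscles of C57BL/6 mice, male and female and 3 to 6 months old, enriched with magnetic beads as CD45-, CD31-, α7-integrin- and SCA-1+ cells and grown in serum with basic fibroblast growth factor at low oxygen. The senescent group had received 20 μM of etoposide, a topoisomerase poison that breaks DNA, for 48 h and then normal medium for 5 days, whereas the control group had received no etoposide. The sources used here do not say whether the cultures of a group came from separate animals, so p values measure the spread between these libraries, which may be technical.

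Collagens are trimers of chains that wind into a triple helix, and this helix needs a glycine, followed by 2 other residues, in each repeat (Gly-X-Y). Fibrillar collagens form the cross-striated fibers that carry tension in muscle connective tissue, and FACIT collagens sit on their surface. Basement membrane collagens (type IV) build the sheet around each myofiber, beaded collagens (type VI) make microfibrils between that sheet and the fibers, and transmembrane collagens stay anchored in the membrane of the cell that makes them. Fibroblast-like cells, FAPs among them, are a main source of collagen in muscle.

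The defining repeat can be read in the coding sequence of the members, and 5 stretches are shown, 1 from each main type, because 4 hold the unbroken pattern and 1 shows how it breaks. Each was taken from the longest open reading frame among the GENCODE transcripts (mouse, GRCm38) and is in frame, with the glycine codons (GGN) in capitals. Codons are counted from the start codon. The first 4 begin at the first glycine of the longest unbroken repeat, and the last runs over the end of the longest repeat of the type IV chain Col4a1, where the spacing of the capitals breaks.
Col1a1 (fibrillar, codons 168 to 182): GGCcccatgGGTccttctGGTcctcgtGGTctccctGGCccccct
Col12a1 (FACIT, codons 2805 to 2819): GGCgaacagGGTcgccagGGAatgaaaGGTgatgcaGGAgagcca
Col6a3 (beaded, codons 1558 to 1572): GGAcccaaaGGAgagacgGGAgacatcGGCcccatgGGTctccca
Col17a1 (transmembrane, codons 651 to 665): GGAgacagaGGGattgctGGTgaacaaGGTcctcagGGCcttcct
Col4a1 (basement membrane, codons 154 to 174): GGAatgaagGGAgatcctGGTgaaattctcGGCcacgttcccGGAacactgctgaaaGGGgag
In 9 of the fibrillar chains the longest unbroken repeat was 337 to 344 triplets long, and it was 216 triplets in Col24a1 and 217 in Col27a1. The longest repeat was 39 to 66 triplets in basement membrane chains, whose helix was split into 23 to 27 runs, 37 to 87 in beaded chains, 32 to 113 in FACIT chains and 40 to 55 in transmembrane chains. Repeats took 8.12% of the residues in Col12a1 and 85.6% in Col9a3, both FACIT chains.

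Several members lie next to each other in the mouse genome (GRCm38, GENCODE annotation). Col4a1 (chromosome 8, 11198423 to 11312826, minus strand) and Col4a2 (chromosome 8, 11312805 to 11449287, plus strand) run away from each other and share their first 22 exonic bases. The shared stretch at chr8:11312805-11312826, read on the plus strand, is shown because both type IV chains start in it, with a GGGCGG box in capitals.
Col4a1 and Col4a2 shared start: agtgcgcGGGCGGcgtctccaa
Col4a4 and Col4a3 on chromosome 1 also run in opposite directions, with 71 bases between them, and Col4a6 and Col4a5 on chromosome X do so with 1308 bases between them. The beaded genes Col6a6, Col6a5 and Col6a4 lie in a row on the minus strand of chromosome 9, and Col6a2 and Col6a1 on that of chromosome 10. Col3a1 and Col5a2, both fibrillar, converge on chromosome 1 with 24.6 kb between their ends. How the counting treated strand or reads shared by neighbours is not given in the sources used here.

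Libraries held 41412179 to 59912520 reads on genes, and values are CPM of the effective library size (reads relative to the library's size after edgeR's scaling between libraries). The factors ran from 0.917 to 0.940 for control libraries and from 1.07 to 1.09 for senescent ones. The proliferation genes Mki67, Top2a, Ccnb1, Cdk1 and Ccna2 were all lower in senescent FAPs, and of 3 cell cycle inhibitors Cdkn1a was higher, while Cdkn2a (56.5 to 129 CPM in control and 63.2 to 104 CPM in senescent FAPs, limma adjusted p = 0.76) and Cdkn2b (limma adjusted p = 0.28) overlapped between groups. All 8 FAP markers were listed, and their summed level was 1362 to 1563 CPM in control and 2444 to 2694 CPM in senescent FAPs. Of the 8, 6 were higher, against 21.8% of all genes tested. Lum, among these 6, had 0.179, 0.475 and 0.951 CPM in control FAPs. It needed the senescent libraries to pass the filter for testing (0.5 CPM in at least 3 libraries). The largest part of the sum was Gsn (means of 821 and 1489 CPM). Pdgfra (192 and 218 CPM, limma adjusted p = 0.46) and Dpp4 passed in neither direction. Of 8 leukocyte markers 4 were listed (Ptprc, Adgre1, Cd3e and Cd79a were not), with sums of 8.92 to 12.1 and 21.2 to 25.7 CPM, and of 7 myogenic markers 2 were listed (Pax7, Myod1, Myf5, Myog and Cdh15 were not), with sums of 14.3 to 19.3 and 23.4 to 30.2 CPM. Sums of endothelial markers (4 of 6 listed, 18.0 to 38.4 and 22.2 to 29.2 CPM) and tenocyte markers (5 of 5 listed, 108 to 240.0 and 87.1 to 182 CPM) overlapped between groups. Single markers within them went both ways. Kdr was lower and Pecam1 higher among endothelial markers, and Tnmd was lower and Mkx higher among tenocyte markers. Pecam1, with 0.467 CPM in control replicate 3, needed a senescent library to pass the filter. Pericyte and smooth muscle markers summed to 309.8 to 412 and 258 to 281 CPM (7 of 7 listed). Most of that sum was Cspg4, which was lower with Mcam, whereas Notch3 and Rgs5 were higher and the other 2 of the 6 tested passed in neither direction. Schwann and glial markers summed to 4.35 to 9.17 and 11.1 to 13.9 CPM (5 of 6 listed). Chondrocyte markers summed to 20.3 to 44.2 and 14.2 to 22.5 CPM, with Acan, Hapln1, Snorc and Ucma not listed. In bulk RNA, fewer cells of a type and less RNA per cell cannot be told apart, and the part of these sums in the collagen values was not tested.

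Collagen mRNA made up a smaller share of every senescent library than of any control library. Collagen chain genes took 6.71%, 4.01% and 5.91% of the reads in the control libraries (here and below in the order of replicates 1, 2 and 3) and 3.16%, 2.72% and 2.51% in the senescent libraries. The means were 5.54% ± 1.39 and 2.80% ± 0.33 (SD, n = 3 each), 1.98 times lower in senescent FAPs (exact permutation test, two-sided, p = 0.1, and no smaller p is possible with 3 against 3). Without Col1a1 the shares were 4.10% ± 0.91 and 2.46% ± 0.24, still apart. These shares do not depend on the scaling between libraries.

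Most of this difference lay in the fibrillar chains, with a change of −2.67 percentage points beside −2.747 for all collagen chain genes. Fibrillar chains took 5.98%, 3.03% and 5.00% of the reads in control FAPs and 2.40%, 1.89% and 1.71% in senescent FAPs, with the groups apart. Beaded chains took 0.256% ± 0.00923 and 0.153% ± 0.0540, and FACIT chains 0.332% ± 0.0453 and 0.255% ± 0.0135 (SD, n = 3), also apart. Basement membrane chains took 0.0900%, 0.335% and 0.176% of the reads in control FAPs and 0.192%, 0.319% and 0.301% in senescent FAPs. Those groups overlapped, and control replicate 2 was above all senescent libraries. Exon length, here and below, is that of all annotated exons of a gene merged over its transcripts. Within collagen, and divided by exon length, fibrillar chains made up 89.0%, 75.5% and 84.3% in control and 73.4%, 66.8% and 65.2% in senescent FAPs (exact permutation p = 0.1), while without division by length the groups overlapped (p = 0.2). Without division by length the fibrillar share was 89.1%, 75.6% and 84.6% in control and 75.9%, 69.4% and 68.2% in senescent FAPs, lower in the senescent library of each of the 3 pairs with equal replicate numbers.

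**Figure D1:**
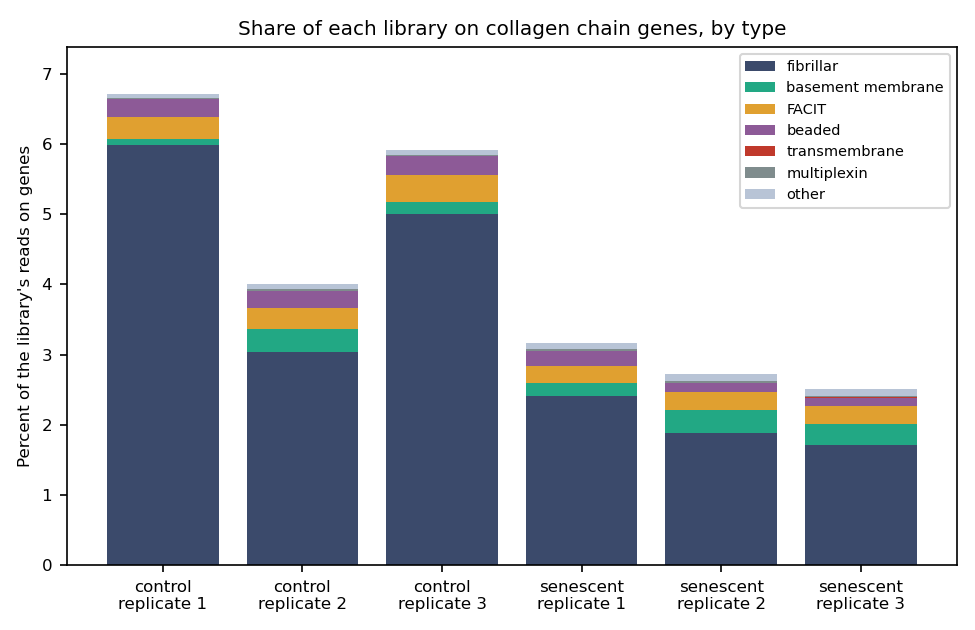
Share of each library's reads on collagen chain genes by type of chain, in percent, for control replicates 1 to 3 and senescent replicates 1 to 3. The stacked bars reach 4.01% to 6.71% in control and 2.51% to 3.16% in senescent libraries, and most of each bar is fibrillar.

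Of the 41 members, 38 reached 0.5 CPM in at least 3 libraries and were tested with limma on log2(CPM + 0.5). Col22a1, Col4a3 and Col13a1 did not reach it. A gene that is high in 1 group only can pass this filter through that group, and Col4a4, Col6a4, Col6a6 and Col25a1, with every control value under 0.5 CPM, passed through the senescent libraries alone. Such genes had to differ, and all 4 are among the members counted as higher below. Col9a3 (0.285 CPM in control replicate 2) and Col17a1 (0.379 CPM in control replicate 1) also needed a senescent library to pass. They too are counted as higher. At a Benjamini-Hochberg adjusted p under 0.05 over all 14776 genes tested, 12 members were higher in senescent compared to control FAPs (31.6%, against 21.8% of all genes tested), 10 were lower (26.3%, against 24.3%) and 16 passed in neither direction. The median log2 fold change of the 38 was −0.07, beside −0.03 over all genes. With library totals in place of edgeR's factors 13 members were higher and 7 lower, beside 4992 and 1929 of the 14776 genes. That scaling moved the median of all genes to 0.17. Without control replicate 2, 14 members were higher and 16 lower, beside 3405 and 3875 of all genes. With the replicate number as a block, 13 were higher and 15 lower, beside 3576 and 3947 of all genes.

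At the study's threshold (p under 0.01 before adjustment, with a change of more than 1 on the log2 scale), 3 members were higher (7.89%, against 6.93% of all genes) and 7 lower (18.4%, against 3.9%). The 7 lower members were Col1a1, Col1a2, Col2a1, Col5a1, Col5a2, Col6a3 and Col8a2, and the 3 higher members were Col28a1, Col9a3 and Col6a4. The number of higher members at this threshold ran from 1 to 8 over the settings tried. The 2 groups did not overlap for 13 members that were higher in senescent FAPs (34.2%, against 26.5% of all genes) and 10 that were lower (26.3%, against 30.9%).

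The members called lower were all abundant. When the genes tested were divided by mean CPM into 3 classes of equal size, the class above 37.9 CPM held 22 members, among them all 10 called lower and 2 called higher. The class under 7.22 CPM held 12 members, of which 8 were called higher and none lower by limma at an adjusted p under 0.05, but 4 of the 8 (Col4a4, Col6a4, Col6a6 and Col25a1) passed the filter through the senescent libraries alone. All genes leaned in the same way, with 29.3% higher and 12.5% lower in the lowest class and 16.5% higher and 34.7% lower in the highest class. Rare chains here had few reads, such as 1, 4 and 4 reads of Col25a1 in the control libraries against 28, 40 and 24 in the senescent ones.

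**Figure D2:**
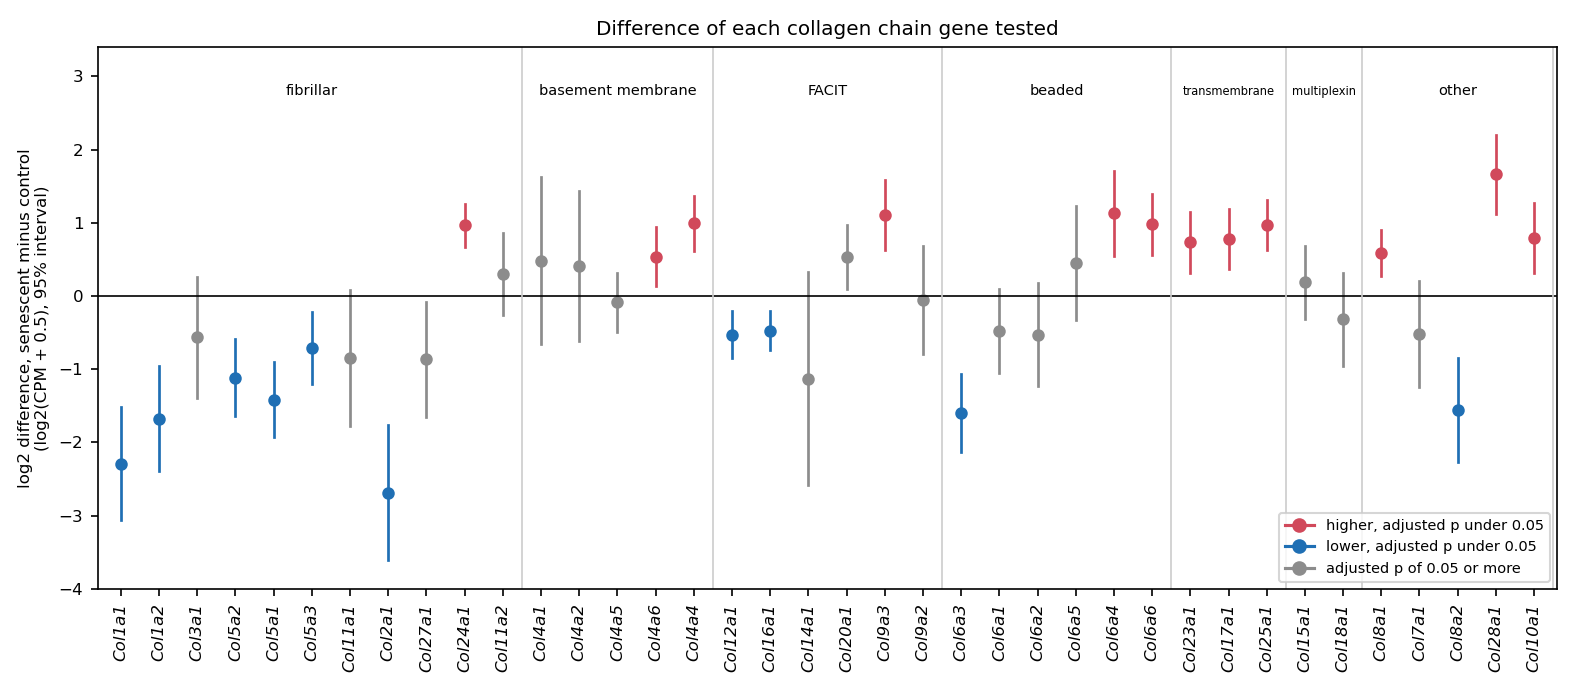
Log2 fold change of each tested collagen chain gene on the log2(CPM + 0.5) scale, senescent minus control, with 95% confidence intervals from limma and genes grouped by type. Fibrillar chains lie mostly below 0, from −2.69 for Col2a1 to 0.97 for Col24a1, and the 3 transmembrane chains lie above 0.

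Among the 11 fibrillar chains, 6 were lower, 1 was higher and 4 passed in neither direction, with a median log2 fold change of −0.87. Of all genes tested, 24.3% were lower and 21.8% higher, and in the class above 37.9 CPM 34.7% and 16.5%. The pair that makes type I collagen, the main fibrillar collagen of connective tissue, fell steeply. Col1a1 had 21129.7, 9978 and 15527 CPM in control FAPs and 4073, 2923 and 2353 CPM in senescent FAPs. The lowest control value was more than any senescent value. Its log2 fold change was −2.29 (standard error, SE, 0.33, limma adjusted p = 0.0015), and its mean was 4.99 times lower. Col1a2, the second chain of type I, had 16986, 7949.7 and 13455 CPM in control and 4556, 3595 and 3412 CPM in senescent FAPs. The groups were apart again, for a log2 fold change of −1.67 (SE 0.31, limma adjusted p = 0.0040).

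Both chains of type V collagen, which nucleates type I fibers and limits their diameter, were lower as well. Col5a1 had 5424, 3215 and 4679 CPM in control and 1940.35, 1569 and 1413 CPM in senescent FAPs, for a log2 fold change of −1.41 (SE 0.22, limma adjusted p = 0.0021). Col5a2 had 8284, 4911 and 7604 CPM in control and 3330.3, 3114 and 2929 CPM in senescent FAPs. Its log2 fold change was −1.12 (SE 0.23, limma adjusted p = 0.0062), and with quantile normalization it was −0.53 and did not pass (adjusted p = 0.054). The groups were apart for both genes. Col5a3, a less common type V chain, had 480.5, 375 and 396 CPM in control and 335, 266 and 182 CPM in senescent FAPs, a smaller fall of 0.71 on the log2 scale (SE 0.21, limma adjusted p = 0.027). The call of Col5a3 was lost without control replicate 1 or 3 or without senescent replicate 2 or 3, at adjusted p values up to 0.075, and with library totals or quantile normalization.

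Col3a1, the chain of type III collagen, which mixes with type I in fine fibers, passed in neither direction. It had 12785, 5539 and 11798 CPM in control and 8124, 5744 and 5546 CPM in senescent FAPs. Control replicate 2 was below all senescent libraries, whereas control replicates 1 and 3 were above them. The log2 fold change was −0.56 (95% confidence interval −1.39 to 0.26, limma adjusted p = 0.23). Without control replicate 2 it was −0.95 (adjusted p = 0.010), and under quantile normalization its sign turned (0.28).

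The largest fall of all members was in Col2a1, the chain of cartilage collagen. It had 41.1, 81.7 and 118 CPM in control and 9.05, 17.1 and 8.53 CPM in senescent FAPs. Every control library was above every senescent library, and the log2 fold change was −2.69 (SE 0.40, limma adjusted p = 0.0016). The partner Col11a1, a cartilage chain that can also join type V trimers, had 60.5, 138 and 139.9 CPM in control and 34.3, 78.4 and 73.7 CPM in senescent FAPs. Its groups overlapped through control replicate 1, although senescent values were below the control value of the same number in all 3 pairs. The log2 fold change of −0.85 had a limma adjusted p of 0.12 without the replicate block and 2.55e-04 with it. Col27a1 was in the same position, with a log2 fold change of −0.87 and limma adjusted p values of 0.070 without and 0.015 with the block.

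Col24a1 was the only fibrillar chain called higher. It belongs, with Col27a1, to the fibrillar chains with the short repeat. Col24a1 had 10.98, 12.6 and 11.7 CPM in control and 26.4, 24.3 and 20.0 CPM in senescent FAPs, with the groups apart and a log2 fold change of 0.97 (SE 0.13, limma adjusted p = 0.0010). Col11a2 stayed between 3.02 and 6.35 CPM in all libraries and passed in neither direction.

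**Figure D3:**
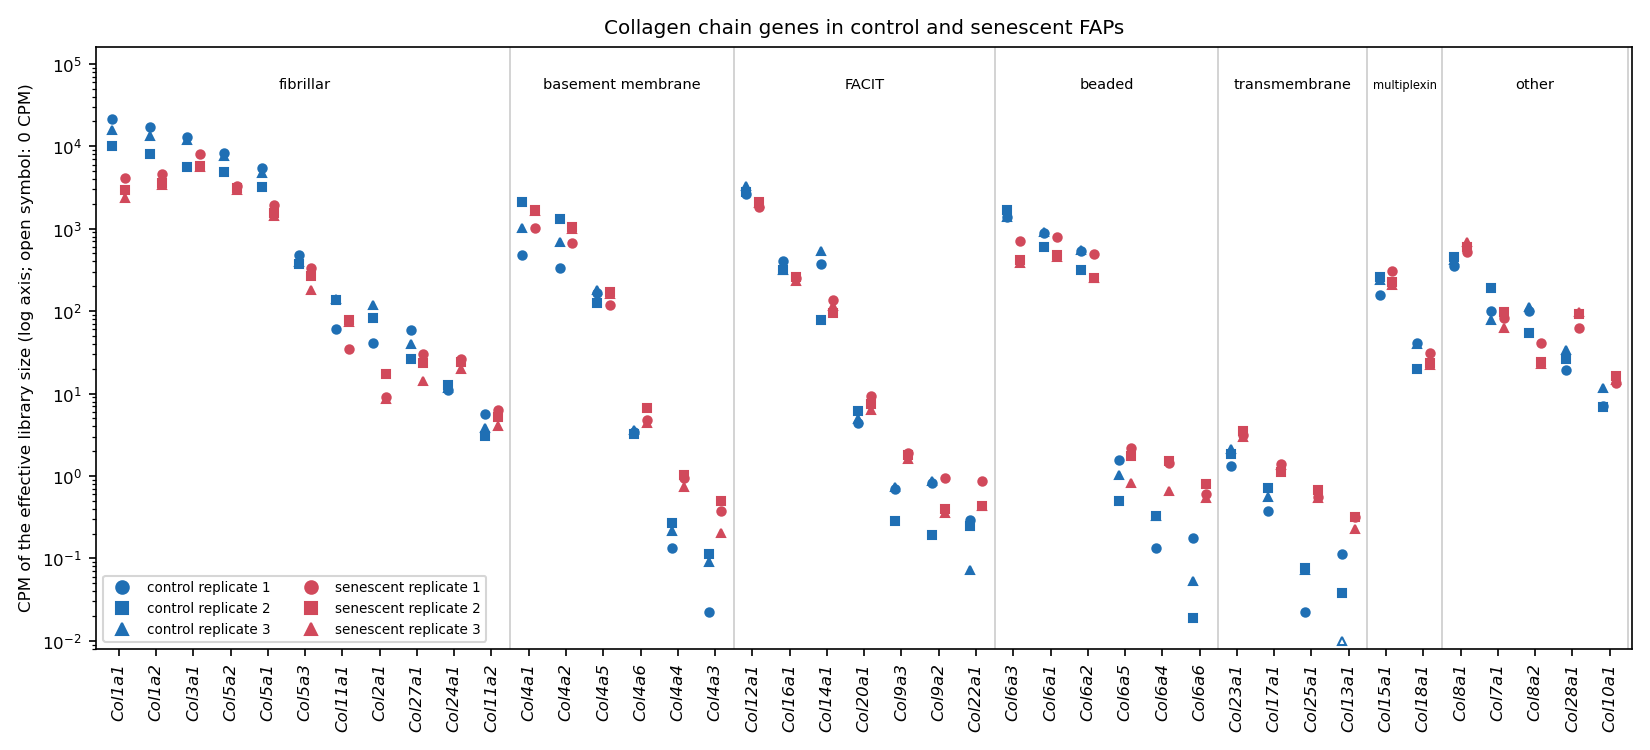
CPM of each collagen chain gene in each library on a log10 axis, genes grouped by type, with control and senescent libraries in different colors. Col1a1 spans 2353 to 21129.7 CPM, and most of the rare chains at the right of each group have higher senescent than control points.

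No basement membrane chain was called lower. Of 5 tested, 2 were higher by limma at an adjusted p under 0.05 and 3 passed in neither direction, with a median log2 fold change of 0.48. The 2 called, Col4a4 and Col4a6, were in the class under 7.22 CPM, where 29.3% of all genes were higher. Col4a1, a chain of the common type IV trimer, had 475, 2131 and 1023 CPM in control and 1008, 1708 and 1642 CPM in senescent FAPs. Its partner Col4a2 had 335, 1297 and 686 CPM in control and 664, 1049 and 1000.1 CPM in senescent FAPs. Control replicate 2 was the highest of the 6 libraries and control replicate 1 the lowest for both genes, so the groups overlapped widely. The log2 fold changes were 0.48 for Col4a1 (95% confidence interval −0.66 to 1.63) and 0.41 for Col4a2 (−0.62 to 1.43), and neither passed. Without control replicate 2 they were 1.02 (limma adjusted p = 0.036) and 0.89 (adjusted p = 0.042), and without control replicate 1 they were −0.06 and −0.09.

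The other type IV chains were much rarer or flat. Col4a5 lay between 117 and 180 CPM in all 6 libraries, with a log2 fold change of −0.09 (95% confidence interval −0.49 to 0.32), a sign that turned with library totals and quantile normalization. Col4a4 had 6, 14 and 12 reads in control and 48, 61 and 33 in senescent FAPs, and it was higher by 0.99 on the log2(CPM + 0.5) scale (SE 0.16, limma adjusted p = 0.0025). Its neighbour Col4a3, under the filter, had 1, 6 and 5 reads in control and 19, 30 and 9 in senescent FAPs. Col4a6 was higher by 0.54 (limma adjusted p = 0.038), but the call was lost on leaving out any 1 of 5 libraries (all but senescent replicate 3) and with quantile normalization, at adjusted p values up to 0.13.

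FACIT chains were mixed, with 1 higher, 2 lower and 3 in neither direction among the 6 tested. Of all genes tested, 21.8% were higher and 24.3% lower. Col12a1, which coats type I fibers, had 2619, 2788 and 3267 CPM in control and 1847, 2094 and 2035 CPM in senescent FAPs. The groups were apart, and the log2 fold change was −0.53 (SE 0.14, limma adjusted p = 0.016). Col16a1 had 410.1, 318 and 313 CPM in control and 251, 259 and 233 CPM in senescent FAPs, a fall of 0.47 on the log2 scale (SE 0.12, limma adjusted p = 0.013). With library totals both kept their sign and neither passed (adjusted p = 0.099 for Col12a1 and 0.092 for Col16a1). With quantile normalization Col12a1 did not pass (adjusted p = 0.29). Leaving out control replicate 3, senescent replicate 1 or senescent replicate 3 raised the adjusted p of Col12a1 to between 0.052 and 0.064, and leaving out senescent replicate 3 raised that of Col16a1 to 0.055.

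Col14a1, another FACIT chain of fiber surfaces, had the widest spread between control libraries of the members above 37.9 CPM. It had 370.4, 78.7 and 543 CPM in control and 137, 95.03 and 116 CPM in senescent FAPs. Control replicate 2 was the lowest of all 6 libraries. The log2 fold change was −1.13 (95% confidence interval −2.59 to 0.33, limma adjusted p = 0.18), and without control replicate 2 it was −1.96 (adjusted p = 2.22e-04). Among the rare chains, Col9a3 had 0.692, 0.285 and 0.736 CPM in control and 1.91, 1.77 and 1.62 CPM in senescent FAPs, for a log2 fold change of 1.11 (SE 0.21, limma adjusted p = 0.0043). Col9a2, its partner in type IX trimers, stayed between 0.190 and 0.933 CPM with overlapping groups. Col20a1 was higher in all 3 senescent libraries by 0.53 on the log2 scale, with a limma adjusted p of 0.0502 that fell to 0.048 with the replicate block.

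Beaded chains split within the type VI trimer, which Col6a1, Col6a2 and Col6a3 form in muscle. Col6a3 had 1368, 1705 and 1386 CPM in control and 717, 422 and 386 CPM in senescent FAPs, apart by a wide gap. Its log2 fold change was −1.60 (SE 0.23, limma adjusted p = 0.0015). Col6a1 had 887, 593 and 901 CPM in control and 798, 476 and 456 CPM in senescent FAPs, with senescent replicate 1 inside the control range. Col6a2 had 534, 319 and 556 CPM in control and 489, 255 and 251 CPM in senescent FAPs, and it overlapped through the same library. The log2 fold changes of −0.48 for Col6a1 and −0.53 for Col6a2 had limma adjusted p values of 0.15 and 0.19 without the replicate block and 0.039 and 0.046 with it. Without senescent replicate 1 they were −0.74 (limma adjusted p = 0.023) and −0.85 (adjusted p = 0.030).

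The rare beaded chains Col6a4, Col6a5 and Col6a6 can take the place of Col6a3 in the trimer. Col6a4 had 0.134, 0.323 and 0.323 CPM in control and 1.45, 1.51 and 0.653 CPM in senescent FAPs, with a log2 fold change of 1.13 (SE 0.25, limma adjusted p = 0.0086). Col6a6 had 8, 1 and 3 reads in control and 30, 48 and 24 in senescent FAPs, and was called higher (log2 fold change 0.98, limma adjusted p = 0.0038), a call that quantile normalization did not keep (adjusted p = 0.063). Col6a5 overlapped between groups, with 0.494 to 1.54 CPM in control and 0.833 to 2.16 CPM in senescent FAPs. Even in senescent FAPs Col6a4 stood at 0.141 CPM per kilobase of exon, beside 42.5 for Col6a3.

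The transmembrane chains Col23a1, Col17a1 and Col25a1 were higher in senescent FAPs, each at a low level. They were in the class under 7.22 CPM, where 29.3% of all genes were higher and 12.5% lower. Col25a1 passed the filter only through the senescent libraries, and Col17a1 also needed a senescent library to pass. Col23a1 had 1.32, 1.83 and 2.12 CPM in control and 3.12, 3.497 and 2.99 CPM in senescent FAPs, for a log2 fold change of 0.73 (SE 0.18, limma adjusted p = 0.013). Its call was lost without senescent replicate 2 (adjusted p = 0.054). Col17a1, a chain of the hemidesmosomes of skin, had 0.379, 0.723 and 0.556 CPM in control and 1.39, 1.12 and 1.35 CPM in senescent FAPs, for a log2 fold change of 0.77 (SE 0.18, limma adjusted p = 0.0098). Col25a1 was higher by 0.97 (SE 0.15, limma adjusted p = 0.0019) on the read numbers given above. Col13a1, a chain found at the neuromuscular junction, was under the filter, with 5, 2 and 0 reads in control and 16, 19 and 10 in senescent FAPs. Together the 4 chains took 2.24e-04% of the reads in control and 5.78e-04% in senescent FAPs. For these low genes the scale log2(CPM + 0.5) understates the change.

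Neither multiplexin, collagens of the basement membrane zone that release anti-angiogenic fragments, passed. Col15a1 had 155, 263 and 235 CPM in control and 303, 226 and 207 CPM in senescent FAPs (log2 fold change 0.19, 95% confidence interval −0.31 to 0.69). Col18a1 had 40.6, 19.6 and 39.4 CPM in control and 30.8, 23.3 and 22.4 CPM in senescent FAPs (−0.32, 95% confidence interval −0.95 to 0.32). Without control replicate 2, the lowest library, Col18a1 was lower by 0.65 on the log2 scale (limma adjusted p = 0.0065).

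The remaining chains held the tested member with the largest rise on the log2(CPM + 0.5) scale. Among tested members, though, the ratio of means was larger for the rare chains Col25a1, Col6a6, Col6a4 and Col4a4. Col28a1, a chain with von Willebrand factor type A domains, had 19.2, 26.4 and 33.3 CPM in control and 61.6, 92.5 and 98.1 CPM in senescent FAPs. The groups were far apart, with a mean 3.20 times higher and a log2 fold change of 1.66 (SE 0.23, limma adjusted p = 0.0013). The chains of type VIII collagen, a short-chain network collagen, went in opposite directions. Col8a1 had 350.4, 448 and 413 CPM in control and 523, 602 and 696 CPM in senescent FAPs (log2 fold change 0.59, SE 0.13, limma adjusted p = 0.0099). Col8a2 had 99.7, 54.9 and 111 CPM in control and 41.4, 24.1 and 22.9 CPM in senescent FAPs (−1.56, SE 0.31, limma adjusted p = 0.0052). The groups were apart for both. Col10a1, the chain of hypertrophic cartilage, was higher by 0.79 (limma adjusted p = 0.016), a call lost without senescent replicate 2 or 3 (adjusted p = 0.067 and 0.053). Col7a1, the anchoring fibril chain, had a log2 fold change of −0.52 and a limma adjusted p of 0.21 without the replicate block and 0.018 with it.

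Ratios of chains within a library do not depend on the scaling between libraries, and they are given here for partner chains without a test. The reads of Col1a1 relative to Col1a2 were 1.24, 1.26 and 1.15 in control and 0.894, 0.813 and 0.690 in senescent FAPs. The groups were apart, with a difference of −0.62 on the log2 scale, so Col1a1 was lower relative to Col1a2 in every senescent library, a difference that was not tested. Per kilobase of exon, the mean ratio was 2.31 in control and 1.51 in senescent FAPs. That value rests on merged exon lengths of 6563 bases for Col1a1 and 12426 bases for Col1a2. Their coding sequences hold 1453 and 1372 residues, so the ratio per kilobase depends on the length chosen and does not give the chain numbers of the trimer. The ratio of Col5a1 to Col5a2 was 0.655, 0.655 and 0.615 in control and 0.583, 0.504 and 0.482 in senescent FAPs. The ratio of Col3a1 to Col1a1 was 0.605, 0.555 and 0.760 in control and 1.99, 1.96 and 2.36 in senescent FAPs, and Col3a1 took 16.3% ± 2.94 of all collagen reads in control and 24.7% ± 2.41 in senescent FAPs (SD, n = 3).

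Other pairs had ratios that overlapped between groups. Col4a1 to Col4a2 ranged only from 1.42 to 1.64 over the 6 libraries, with overlapping groups, although the level of Col4a1 spanned 4.49-fold. These are the genes whose shared start is printed above. Col6a1 to Col6a2 ranged from 1.62 to 1.86. By contrast, Col6a3 to Col6a1 was 1.54, 2.87 and 1.54 in control and 0.899, 0.886 and 0.846 in senescent FAPs, and Col8a1 to Col8a2 was 3.52, 8.16 and 3.72 in control and 12.7, 25.0 and 30.4 in senescent FAPs. Both pairs were apart, and control replicate 2 had the highest control ratio in each.

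**Figure D4:**
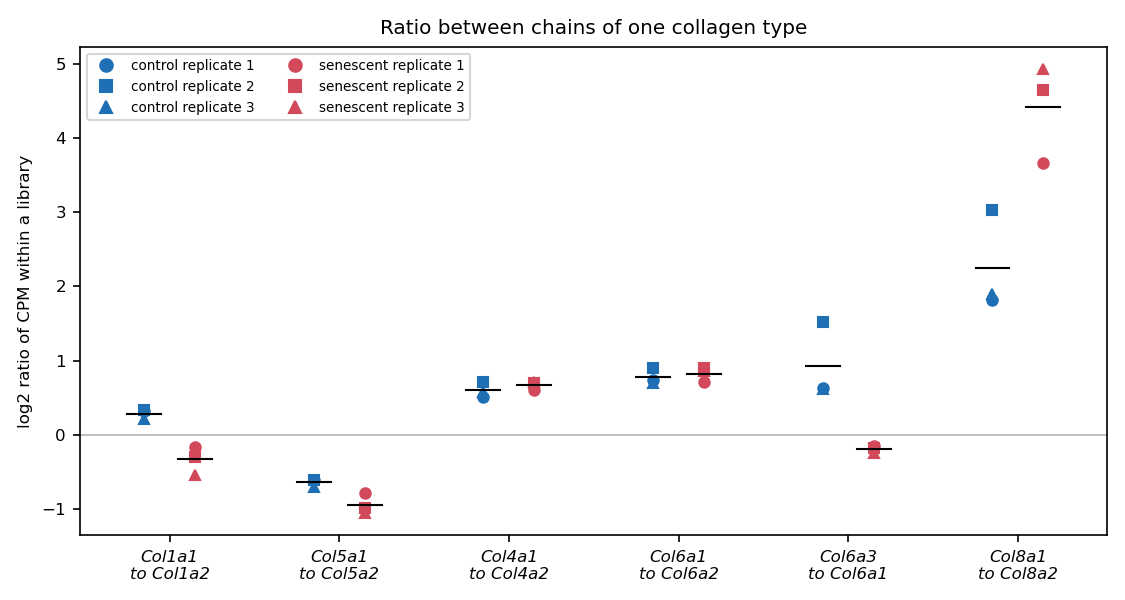
Ratio of reads between 2 collagen chain genes in each library on a log2 axis, with control and senescent libraries in different colors. Col4a1 to Col4a2 and Col6a1 to Col6a2 overlap between groups, while Col1a1 to Col1a2, Col5a1 to Col5a2, Col6a3 to Col6a1 and Col8a1 to Col8a2 are apart. Black lines are group means.

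Promoter sequence from RefSeq (GRCm38.p6, 250 bases before the start) was given for 33 of the 41 members and 11029 listed genes, and was searched on both strands for 3 motifs. CCAAT, the box bound by NF-Y, was in 12 members (36.4%, against 36.1% of all listed genes). GGGCGG, a box bound by Sp1, was in 21 (63.6%, against 58.0%), and TATAAA was in 5 (15.2%, against 6.75%). The promoters of Col5a1, which was lower, and of Col28a1, which was higher, are shown for comparison, with the motifs in capitals on either strand.
Col5a1 (fibrillar, lower, chr2:27886175-27886424, plus strand): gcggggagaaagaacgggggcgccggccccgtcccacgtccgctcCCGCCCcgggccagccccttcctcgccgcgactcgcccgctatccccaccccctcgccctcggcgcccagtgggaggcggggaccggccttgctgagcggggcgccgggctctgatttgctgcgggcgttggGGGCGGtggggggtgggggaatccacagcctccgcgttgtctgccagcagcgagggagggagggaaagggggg
Col28a1 (remaining, higher, chr6:8192618-8192867, minus strand): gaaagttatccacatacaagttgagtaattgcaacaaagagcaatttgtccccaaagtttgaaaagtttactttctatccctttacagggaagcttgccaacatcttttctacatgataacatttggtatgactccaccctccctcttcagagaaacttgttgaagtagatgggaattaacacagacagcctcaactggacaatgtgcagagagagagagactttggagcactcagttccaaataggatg
Col5a1 held GGGCGG at 2 places and neither other motif, and Col28a1 held none of the 3 motifs in this window. A match of letters is a description of the sequence and not a binding site.

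Genes that fold, modify and cross-link collagen were more often lower than higher. Of 39 genes of collagen biosynthesis, 37 were tested, 20 were lower and 2 higher by limma at an adjusted p under 0.05 (against 24.3% lower and 21.8% higher of all genes tested, and 34.7% and 16.5% in the class above 37.9 CPM), and their median log2 fold change was −0.49. Colgalt1, which adds galactose to collagen hydroxylysine, had 410.3 ± 17.2 CPM in control and 199 ± 11.3 CPM in senescent FAPs (SD, n = 3), a log2 fold change of −1.04 (limma adjusted p = 1.68e-04). Fkbp10, a chaperone and prolyl isomerase of procollagen, had 595 ± 33.3 and 282 ± 22.2 CPM (−1.08, adjusted p = 2.36e-04), and Lepre1, a prolyl 3-hydroxylase, had 243 ± 28.1 and 113 ± 15.1 CPM (−1.10, adjusted p = 5.39e-04). The groups were apart for all 3. Leprel1, among the genes called higher, had 0.268, 0.361 and 0.646 CPM in control FAPs, so it needed senescent libraries to pass the filter.

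Of 13 genes of collagen breakdown and uptake, 12 were tested, 7 were higher and 2 lower, against 21.8% and 24.3% of all genes tested. The collagenase Mmp13 had 0.0670, 0.685 and 0.0898 CPM in control and 4.84, 6.44 and 4.93 CPM in senescent FAPs (log2 fold change 3.00, limma adjusted p = 3.77e-04). Its control replicates 1 and 3 were under 0.5 CPM, so it needed the senescent libraries to pass the filter. Mmp9, with 0.424 CPM in control replicate 1, also needed a senescent library. Both genes are among the 7 called higher. Mmp3, a matrix protease that can activate collagenases, had 1.38, 5.40 and 3.82 CPM in control and 32.8, 53.0 and 59.0 CPM in senescent FAPs (3.70, adjusted p = 5.62e-04). The peptidase gene Prep fell from 103 ± 3.97 to 59.3 ± 1.67 CPM (SD, n = 3, limma adjusted p = 2.52e-04).

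Of 11 collagen receptor genes, 10 were tested, 3 were higher and 4 lower, against 21.8% and 24.3% of all genes tested. The integrin subunit Itga10 had 2.62 ± 0.198 CPM in control and 5.46 ± 0.452 CPM in senescent FAPs (SD, n = 3, limma adjusted p = 0.0017). Itga1, a collagen-binding integrin subunit, fell from 42.7 ± 9.71 to 21.2 ± 1.85 CPM (limma adjusted p = 0.0023), and Cspg4, a proteoglycan that binds type VI collagen and that also marks pericytes, fell from 288 ± 59.2 to 167 ± 10.1 CPM (limma adjusted p = 0.0037). Of 29 regulators of collagen transcription, 27 were tested, 5 were higher and 7 lower, near the 21.8% and 24.3% of all genes tested, with a median of −0.13. Tgfb3, a ligand of the TGF-β pathway that drives collagen expression, fell from 319 ± 29.0 to 198 ± 19.2 CPM (limma adjusted p = 0.0016), whereas the receptor Tgfbr2 rose from 227 ± 23.0 to 342 ± 17.6 CPM (limma adjusted p = 0.0022). Nfyc, a subunit of NF-Y, fell from 30.3 ± 2.60 to 18.4 ± 1.74 CPM (limma adjusted p = 0.0018).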

How the data were processed

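Libraries had been made with a stranded mRNA kit, and the authors scaled gene counts with edgeR (3.10, in R 3.6.0, mm10, per the submitters' processing notes). The deposited signal is CPM of the effective library size, 1 value per gene and library. The aligner, the counter and the annotation are not given in the sources used here. Every value was a whole multiple of 1 read (100% of values, tolerance 0.1 reads), so reads were recovered. 1 line that names no gene, with 0.004% to 0.007% of the reads, was left out.

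Plain CPM had been assumed, and the test was kept for this signal. limma (3.58.1, R 4.3.3, variance trend, two-sided) was fitted on log2(CPM + 0.5) over genes that reached 0.5 CPM in 3 or more libraries. Count models on these reads (DESeq2 1.42.0 and edgeR 4.0.16), other pseudocounts, filters and scalings, a replicate block and leaving out each library were alternatives. The fit was tested on simulated data. The simulation gave every gene the same spread beyond counting error, a simpler setting than these libraries, so it does not vouch for single calls. The chi-square per gene between replicates ran from 14.9 to 149, so no library repeated another. Deviations of libraries with equal replicate numbers correlated at 0.54, 0.31 and 0.21, and those with unequal numbers at −0.36 to 0.15. The main fit used no pairs, and a block on the numbers, which come from the labels, was an alternative.

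The members, types and gene lists were chosen with earlier results of these data known. Values in each library are given for the 2 most abundant members of a type, for members called with a change above 1 on the log2 scale, and for their partner chains, and the other lists are shown by their 3 smallest p values. Other members were named after their values were seen. Positions and coding sequences came from GENCODE M21 (GRCm38).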

Additional observations from a re-analysis of the deposited data

How the results depend on the processing

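Depth left little counting error for abundant chains, while chains with a few reads per library depend on the pseudocount. The median log2 fold change of the members was −0.50 with a filter at 2 CPM, 0.090 with library totals, 0.19 with no filter and 0.12 with quantile normalization, and −0.19 to 0.065 on leaving out each library. The filter at 2 CPM left 30 members tested. Among these 7 were called higher, and no member that stayed in the test lost its call. The number called lower was 7 to 16 on leaving out each library, the 16 without control replicate 2, where 3875 of all genes were lower. At the study's threshold the number higher was 8 with DESeq2, 8 with edgeR, 7 with library totals, 7 with a pseudocount of 0.1, 1 with a pseudocount of 1, 1 with a filter at 2 CPM and 2 to 6 on leaving out each library. Called lower with library totals were 13 biosynthesis genes, 2 receptors, 1 breakdown gene and 4 regulators. With quantile normalization 2 receptors and 1 breakdown gene were lower and 1 biosynthesis gene was higher, as was 1 with a filter at 2 CPM. Leaving out each library gave 4 to 7 higher and 1 to 2 lower breakdown genes and 3 to 5 higher regulators. The difference in collagen share without Col1a1 was −1.64 percentage points, against −2.75 with it. Signs turned for Col9a2 (0.055 with library totals, −0.38 to 0.11 on leaving out each library), Col4a5 (0.13 with library totals, 0.027 with quantile normalization, −0.24 to 0.079 on leaving out each library), Col3a1 (0.28 with quantile normalization) and, without control replicate 1, Col4a1 (−0.062 to 1.02 on leaving out each library), Col4a2 (−0.089 to 0.89) and Col15a1 (−0.039 to 0.34). None of these passed with all libraries or where its sign turned. Apart from what the construction of a filter or a scaling shows, the cause was not tested.

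With the replicate block, 13 members were higher and 15 lower, beside 3576 and 3947 of all genes tested. It changed the calls of Col20a1, Col6a1, Col6a2, Col11a1, Col27a1 and Col7a1 and no other call of a member.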
